A study of Mus musculus with 18 samples.

Results

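Leucine-rich repeat neuronal adhesion genes are described here in mouse hippocampus: Lrrn1, Lrrn2 and Lrrn3, Lrrtm1, Lrrtm2, Lrrtm3 and Lrrtm4, and Lingo1 and Lingo2. They were chosen by name, 9 genes of 11738 in the tables analysed. All 9 were measured in the miR-132/212 deletion and in tTA::miR132, and 5 of them (Lrrn1, Lrrn2, Lrrn3, Lrrtm1 and Lingo1) in tTA::miR212, where each gene stands for its transcript with the highest mean count. The family was proposed with Lrrn2 in tTA::miR212 already known as a gene of small p, so the values of that comparison are given below as a description. No p-value of the fits made here is given for any member there. The authors' own call for Lrrn2 is mentioned, and nothing is read from it.

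The RNA came from hippocampi of C57BL/6 mice, with cDNA of 6 animals pooled into 3 replicates for each group. In CaMKII-Cre::miR-132/212f/f animals, the deletion below, Cre recombinase under the CaMKII promoter removes both microRNA genes from excitatory forebrain neurons, so other hippocampal cells should keep them. In tTA::miR132 and tTA::miR212 animals a tetracycline transactivator drives a transgene for the microRNA named. Neither the promoter of the transactivator nor the age of the animals is stated in the sources used here. Each kind of animal had its own nontransgenic controls, which lack the recombinase or transactivator too, so effects of the driver and of the microRNA cannot be told apart. There were 2 libraries per group for the deletion and for tTA::miR132 and 3 per group for tTA::miR212, 14 libraries in all.

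Leucine-rich repeats are short stacked protein motifs that form a curved surface for binding other proteins, and in neurons many membrane proteins use them to bind partners across the synaptic cleft. The LRRTM proteins sit on the postsynaptic side of excitatory synapses, bind neurexins or heparan sulphate proteoglycans of the presynaptic side and help to hold AMPA receptors in place. LINGO1 is a part of the Nogo receptor complex, which limits axon growth, and also holds back the maturation of oligodendrocytes. The LRRN proteins are membrane proteins with leucine-rich, immunoglobulin and fibronectin repeats, and their roles are less well known. MicroRNAs pair through their seed, bases 2 to 8, with matching sites in 3′ untranslated regions and lower the level or translation of those messages.

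The mature strands of both microRNAs are shown because they share the seed, given in capitals (5′ to 3′, from RefSeq, build GRCm38.p6). They are 22 bases each and identical at 17 positions.
mmu-miR-132-3p: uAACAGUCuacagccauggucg
mmu-miR-212-3p: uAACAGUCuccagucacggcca
A message matches this seed with GACTGTT, or with ACTGTTA, the complement of bases 1 to 7. The motifs overlap in GACTGTTA, which was counted once, and only the strand of the message was counted. In the longest annotated 3′ untranslated region of each gene (GENCODE vM1, mm9), 1 of the 9 genes, Lrrtm3, held a match, against 16.3% of 19915 protein-coding genes. Among the 3054 genes whose region was of similar length to the 1586 bases of Lrrtm3, 21.3% held one. The match begins at base 1268 after the stop codon and is shown with its neighbours, the paired bases in capitals, at chr10:63391524-63391546 on the minus strand.
Lrrtm3 match: acagagcaGACTGTTccattgtg
Lrrtm2, which has the longest region (3689 bases), held no match, where 39.6% of 1585 genes of similar length did. Lrrtm4 (2743 bases), Lingo2 (1511), Lingo1 (984), Lrrn1 (817), Lrrtm1 (796), Lrrn2 (614) and Lrrn3 (520) held none either, and no coding sequence of the 9 genes held one. No match says only that these letters are not in the annotated window, and brain messages may run longer than the annotation.

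In the genome (mm9, GENCODE vM1) 4 of the genes lie inside a larger gene on the opposite strand. Lrrtm1 (chromosome 6, 77192683 to 77207785, plus strand) lies in Ctnna2, Lrrtm2 (chromosome 18, 35368665 to 35374678, minus strand) in Ctnna1 and Lrrtm3 (chromosome 10, 63391220 to 63553025, minus strand) in Ctnna3, all genes of alpha-catenins, which link cadherins to actin. Lrrn3 (chromosome 12, 42178260 to 42212338, minus strand) lies in Immp2l, a gene of a mitochondrial inner membrane peptidase. Exons of the nested gene and its host shared 0 bases in each case. Whether the counting used strand is not stated, so intron reads of a host could add to a nested gene. Levels below are in CPM, counts scaled to a library total of 1000000. Ctnna1 had 87.4 ± 13.7 CPM (SD, n = 3) in tTA::miR212 and 81.4 ± 6.04 CPM in controls (n = 3). Ctnna2 had 172 ± 18.7 CPM in tTA::miR212 and 161 ± 7.85 CPM in controls. No counts of Ctnna3 or Immp2l were available in tTA::miR212, and none of any host gene in the other comparisons. Levels of the host could therefore not be set beside those of Lrrtm3 and Lrrn3.

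The libraries were unequal. Deletion library 1 had 9.93% of its 10541 genes at a count of 0, while deletion library 2 had 1.14% and controls 1 and 2 had 0.854% and 0.693%. Its correlations across genes with the other libraries of its table (log2(CPM + 1), genes not being independent) were 0.68 to 0.70, while the other pairs there reached 0.91 to 0.92 with their nearest library. Among the tTA::miR132 libraries 2.43% and 0.852% of genes were at 0, against 1.44% and 4.49% in controls 1 and 2. Control library 2 correlated at 0.75 to 0.80 with the other libraries of that table. Each of those reached 0.88 or 0.92 with its nearest library. Totals were 8190899 to 9702801 counts in the deletion table, 8301385 to 14772907 in that of tTA::miR132 and 1299369 to 1544923 in that of tTA::miR212 with 1 transcript kept per gene. These are totals over the genes listed, not full depths. Of 12 markers of hippocampal excitatory neurons the highest, Camk2a, had 1345 to 1729 CPM in the deletion table, while Prox1 was at 0 in a library. The sum of the 12 was 3296 and 3388 CPM in the deletion at the lowest and highest, against 2863 and 3227 CPM in controls, without overlap. Camk2a made up a large part of that sum, and 8 of 12 markers had log2 fold changes above 0. The part of this sum in the values of these neuronal genes was not tested. Summed markers of oligodendrocytes, astrocytes, microglia and endothelium overlapped between deletion and controls. All 9 choroid plexus markers had log2 fold changes below 0 in the deletion. Their sum was 963 and 2562 CPM at the lowest and highest in the deletion, against 5544 and 6463 CPM in controls, and its part in the results below was not tested either. Folr1, Otx2, Clic6, Kcne2 and Prlr were at 0 in a library. In tTA::miR132 the summed oligodendrocyte markers were 4450 to 4596 CPM, against 3634 to 3865 CPM in controls (7 of 8 measured, 4 of 7 with a log2 fold change above 0). For tTA::miR212 the microglial sum was 311 to 366 CPM, against 282 to 307 CPM in controls (3 of 8 measured), and the sums of the other lists overlapped. In bulk tissue, fewer cells of a type and less RNA per cell cannot be told apart.

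Levels are compared between genes per kilobase of the annotated transcript nearest to the deposited one, within a table. In deletion libraries Lrrtm1 was highest at 84.3 ± 3.51 CPM per kilobase (SD, n = 2), followed by Lingo1 at 70.4 ± 5.25 and Lrrn2 at 54.6 ± 9.13. Their controls had 69.1 ± 15.2 for Lrrtm1, 67.2 ± 26.2 for Lingo1 and 55.9 ± 12.6 for Lrrn2. The ranges of these 3 genes overlapped in the controls, so their order there is not resolved. Lrrn3, Lrrn1 and Lrrtm2 followed, at 45.5 ± 6.52, 35.3 ± 2.12 and 30.0 ± 10.8 CPM per kilobase in the deletion and 35.6 ± 10.5, 26.8 ± 0.773 and 18.4 ± 1.65 in controls. In the deletion the ranges of Lrrn2 and Lrrn3, of Lrrn1 and Lrrtm2, and of Lrrtm2 and Lingo2 overlapped as neighbours in this order. Lingo2, Lrrtm3 and Lrrtm4 were lowest, between 11.4 ± 5.15 and 16.6 ± 10.8 in the deletion and between 9.49 ± 3.58 and 11.0 ± 3.67 in controls, with ranges that overlapped. By their means, the tTA::miR132 table gave the same 3 genes at the bottom and the same 3 at the top in both groups. The ranges of Lrrn2 and Lrrn3 and of Lrrtm2 and Lrrtm3 overlapped in its controls. Those of Lrrtm2 and Lingo2 overlapped in tTA::miR132, so not every border between these sets is resolved in that table. There, Lrrtm1 had 75.0 ± 6.55 and Lingo1 65.8 ± 1.22 CPM per kilobase in tTA::miR132, and 56.6 ± 4.29 and 78.1 ± 21.6 in controls. In tTA::miR212 Lingo1 stood above the other 4 genes measured, at 161 ± 19.3 CPM per kilobase (n = 3) and 191 ± 14.1 in controls (n = 3). Lrrn2 followed with 104.6 ± 14.8 and 74.1 ± 6.87 in controls, and Lrrtm1 with 53.3 ± 8.78 and 49.0 ± 7.82. Lrrn1 and Lrrn3 were lowest and overlapped, at 24.0 ± 3.53 and 23.5 ± 4.70 in tTA::miR212 and 25.4 ± 3.62 and 22.6 ± 2.74 in controls. This table counts other transcripts over fewer genes, so its levels cannot be set against those of the others.

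**Figure D1:**
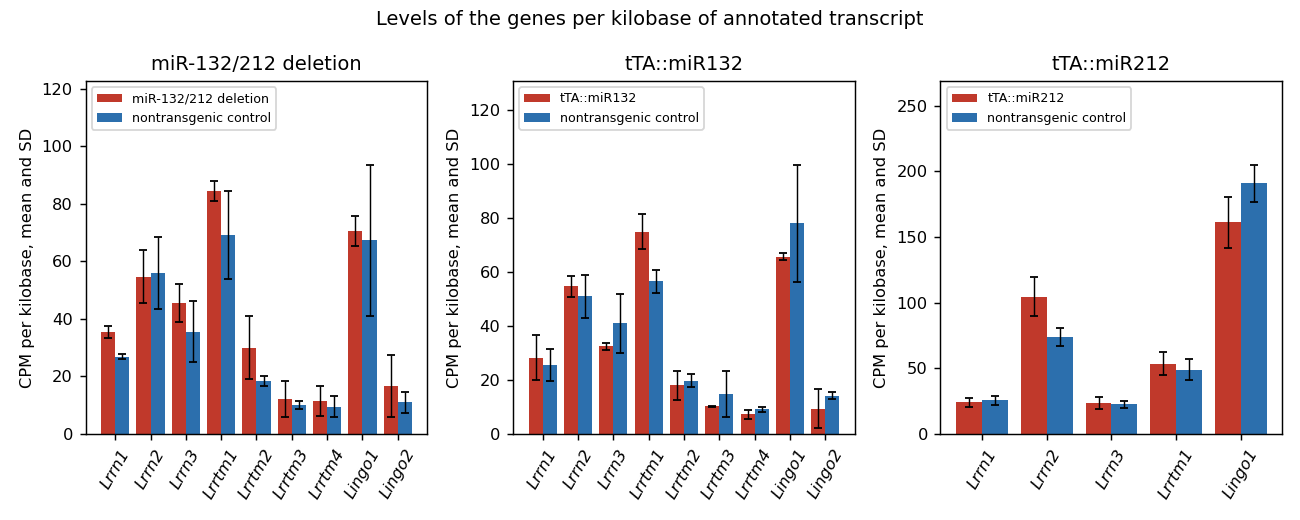
Mean level of each gene in CPM per kilobase of annotated transcript, with the SD, for each kind of animal (red) and its controls (blue); n = 2 libraries per group in the first panels and 3 in the tTA::miR212 panel. Lrrtm1, Lingo1 and Lrrn2 stand highest in both RefSeq tables and Lingo2, Lrrtm3 and Lrrtm4 lowest.

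The first question was how the postsynaptic LRRTM genes differ in the deletion, where both microRNAs are missing from excitatory neurons. Lrrtm1, whose protein binds neurexins, had 206 and 218 CPM in deletion libraries 1 and 2, against 147 and 201 CPM in controls 1 and 2. Lrrtm2, whose protein binds neurexins and the scaffold PSD-95, had 213 and 126 CPM in deletion libraries 1 and 2, against 97.6 and 111 CPM in controls. Both deletion libraries lay above both controls for either gene, by little for Lrrtm1. The log2 fold change was 0.31 (SE 0.27, 95% interval -0.36 to 0.98) for Lrrtm1 and 0.74 (SE 0.37, -0.16 to 1.64) for Lrrtm2, and neither passed edgeR's quasi-likelihood test (adjusted p = 0.999 each, over all genes). The value of Lrrtm2 rested on deletion library 1, the library with many zeros. It was 0.27 without that library. Without deletion library 2 it was 1.10 (edgeR adjusted p = 0.00067), where library 1 stood alone and was assumed to vary like the controls, and 4527 genes passed in all. Lrrtm1 had 0.097 without control library 1 and 0.56 without control library 2.

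Lrrtm3 and Lrrtm4, which encode further LRRTM proteins of excitatory synapses, were lower expressed and split the deletion libraries. Lrrtm3, the gene with the seed match, had 29.8 and 64.6 CPM in deletion libraries 1 and 2, against 34.9 and 43.0 CPM in controls. Lrrtm4, whose protein binds heparan sulphate chains of glypicans, had 26.1 and 50.8 CPM in the deletion, against 23.5 and 40.7 CPM in controls. The groups overlapped for both, with library 2 of the deletion highest. Their log2 fold changes of 0.29 (SE 0.59) and 0.27 (SE 0.65) turned to -0.32 and -0.23 without deletion library 2 and were 0.72 and 0.65 without deletion library 1.

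Where miR-132 was made in excess, Lrrtm1 had 201 and 177 CPM in tTA::miR132 libraries 1 and 2, against 135 and 150.2 CPM in controls 1 and 2, with no overlap. Its log2 fold change was 0.36 (SE 0.27, 95% interval -0.23 to 0.95) and did not pass edgeR's test (adjusted p = 0.997). It stayed above 0 with any 1 library left out, between 0.26 and 0.48. Lrrtm1 had values above 0 both where the microRNAs were removed and where miR-132 was added, and these comparisons have separate controls. Lrrtm2 had 80.9 and 123 CPM in tTA::miR132, against 121 and 102 CPM in controls, and the groups overlapped (log2 fold change -0.17, SE 0.34). Lrrtm3 had 38.9 and 40.4 CPM in tTA::miR132, against 81.7 and 34.5 CPM in controls, so that control library 1 alone stood apart. Its log2 fold change was -0.59 (SE 0.53), 0.13 without that control and -1.06 without control library 2. Lrrtm4 had 19.97 and 28.5 CPM in tTA::miR132, against 32.8 and 28.4 CPM in controls (-0.38, SE 0.67), with the lowest value in library 1 of tTA::miR132. Without that library the log2 fold change was -0.15, and without tTA::miR132 library 2 it was -0.65.

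With miR-212 in excess, Lrrtm1 was the LRRTM gene measured. It had 133, 184 and 156 CPM in tTA::miR212 libraries 1, 2 and 3, against 169.9, 141 and 124 CPM in controls 1, 2 and 3. The groups overlapped over most of their range. The log2 fold change was 0.11 (SE 0.13), and the other transcript rows of Lrrtm1 gave 0.12 each, from nearly the same reads.

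**Figure D2:**
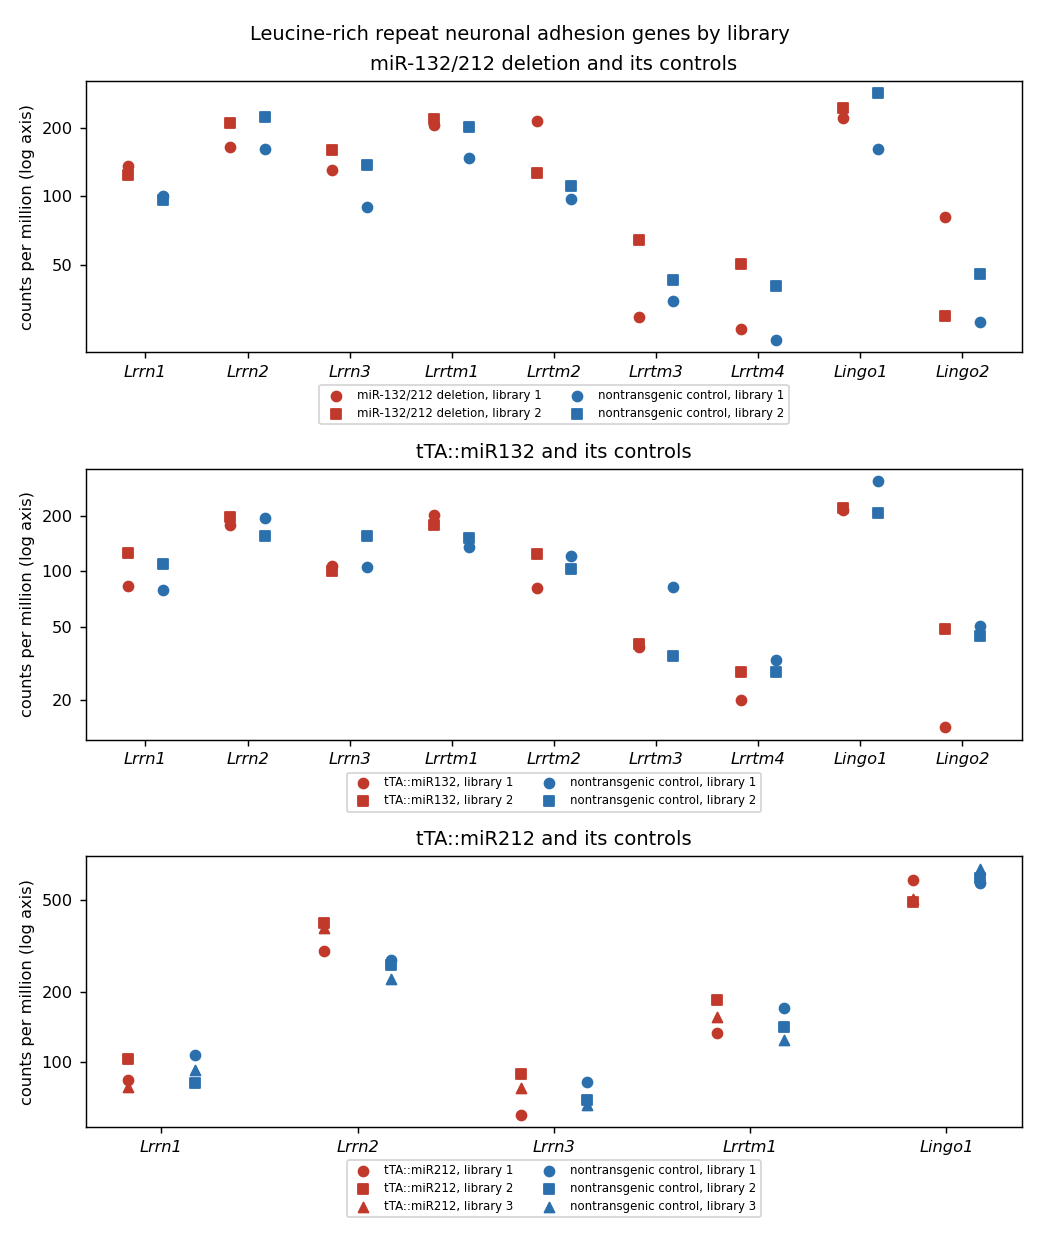
CPM (log axis) of each gene in every library, with each kind of animal in red left of its controls in blue and the library number given by the marker shape. For Lrrn2 in tTA::miR212 the transgenic libraries sit between 301 and 397 CPM, above all 3 controls, and for Lingo2 single libraries stand away from the rest in both RefSeq tables.

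Lingo1, the gene of the Nogo receptor partner, had 219.7 and 244 CPM in deletion libraries 1 and 2, against 160.5 and 283 CPM in controls 1 and 2, so both deletion values lay between the controls. The log2 fold change was 0.09 (SE 0.33, 95% interval -0.72 to 0.90; edgeR adjusted p = 0.999). In tTA::miR132 Lingo1 had 214 and 219.5 CPM, against 308 and 207 CPM in controls, and the groups overlapped because of control library 2. Its log2 fold change was -0.29 (SE 0.25, -0.82 to 0.25; edgeR adjusted p = 0.997), and leaving out control library 2 gave -0.52, leaving out control library 1 a value of -0.0012. In tTA::miR212 Lingo1 had 604, 485 and 505 CPM in libraries 1, 2 and 3, against 588, 619 and 679 CPM in controls 1, 2 and 3. Libraries 2 and 3 lay below every control and library 1 among them, and the log2 fold change was -0.25 (SE 0.089). The other transcript rows of Lingo1 gave -0.26 and -0.28. These rows share most of their reads and are no separate evidence.

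Lingo2, a close relative whose role is less well known, had 81.5 and 30.0 CPM in deletion libraries 1 and 2, against 28.1 and 45.5 CPM in controls, a log2 fold change of 0.64 (SE 0.68). That value turned to -0.31 without deletion library 1 and reached 1.21 without deletion library 2 (edgeR adjusted p = 0.0112, library 1 standing alone). In tTA::miR132 Lingo2 had 14.2 and 48.8 CPM in libraries 1 and 2, against 50.6 and 44.3 CPM in controls. The low library 1 gave the log2 fold change of -0.64 (SE 0.63), which was -0.011 without it, -1.77 without tTA::miR132 library 2 and -1.13 with limma-voom. For Lingo2 the 2 libraries of a group differed 2.72-fold in the deletion and 1.62-fold in its controls, and 3.43-fold in tTA::miR132 and 1.14-fold in its controls. For comparison, all genes with mean counts from the lowest to the highest of the 9 members were taken. The median gene of that set differed 1.58-fold between the deletion libraries and 1.22-fold between their controls. It differed 1.26-fold between the tTA::miR132 libraries and 1.45-fold between their controls. Lingo2 varied less than this median gene in the tTA::miR132 controls and more in the other 3 groups. The set reaches counts far above those of Lingo2, so it is not matched to Lingo2 in count. The tables give a different RefSeq transcript of Lingo2 for the deletion (NM_001165999) and for tTA::miR132 (NM_001166000).

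The receptor that binds LINGO1, encoded by Rtn4r, had 63.0 and 124 CPM in the deletion, against 94.99 and 92.2 CPM in controls (log2 fold change 0.01, SE 0.41). In tTA::miR132 it had 123 and 85.7 CPM, against 109 and 84.8 CPM in controls (0.07, SE 0.35). In tTA::miR212 Rtn4r averaged 133 ± 20.7 CPM (SD, n = 3), against 177 ± 15.1 CPM in controls (n = 3), with every tTA::miR212 library below every control. Its log2 fold change of -0.42 (SE 0.12) did not pass edgeR's test over all genes (adjusted p = 0.714). Rtn4, the gene of the ligand Nogo, had 1027 and 891 CPM in the deletion, against 1074 and 927 CPM in controls (-0.03, SE 0.19). In tTA::miR132 Rtn4 had 1044 and 964 CPM, against 1075 and 1364 CPM in controls, without overlap (-0.33, SE 0.16, edgeR adjusted p = 0.997). It averaged 699 ± 14.1 CPM in tTA::miR212 and 701 ± 20.4 CPM in controls (n = 3 each).

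Of the LRRN genes, Lrrn2 is the one known beforehand from tTA::miR212. Its separation there follows from that choice and is given as a description only. In tTA::miR212 it had 301, 397 and 378 CPM in libraries 1, 2 and 3, against 274, 261 and 228 CPM in controls 1, 2 and 3. All 3 tTA::miR212 libraries lay above all 3 controls, library 1 by the least. The mean was 359 ± 50.6 CPM (SD, n = 3) and 254 ± 23.5 CPM in controls (n = 3). The log2 fold change of 0.49 (SE 0.10) ranged from 0.42 to 0.59 with any 1 library left out. Lrrn2 (ENSMUST00000027706, chromosome 1, 134776850 to 134836582, plus strand) has no host gene in the annotation. In tTA::miR132 Lrrn2 had 178 and 197 CPM in libraries 1 and 2, against 194 and 155 CPM in controls, and the groups overlapped. That log2 fold change was 0.06 (SE 0.26, 95% interval -0.50 to 0.62; edgeR adjusted p = 0.999). In the deletion Lrrn2 had 165 and 209 CPM, against 161 and 222 CPM in controls, with the deletion libraries inside the range of the controls. Here the value was -0.01 (SE 0.29, -0.72 to 0.69; adjusted p = 0.999), and its sign turned with several settings. The intervals of the 2 last comparisons include a difference as large as that in tTA::miR212, and a difference between kinds of animals was not tested, since the tables were made separately.

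Lrrn1 had 136 and 124 CPM in deletion libraries 1 and 2, against 100.7 and 96.7 CPM in controls 1 and 2. Both deletion libraries lay above both controls, and the log2 fold change of 0.42 (SE 0.29, 95% interval -0.30 to 1.15; edgeR adjusted p = 0.999) ranged from 0.32 to 0.52 with any 1 library left out. In tTA::miR132 Lrrn1 had 82.5 and 126 CPM, against 78.9 and 109 CPM in controls (0.10, SE 0.37), with the groups overlapping. In tTA::miR212 it had 83.6, 103 and 78.3 CPM, against 107, 80.8 and 92.4 CPM in controls (-0.09, SE 0.14), again with overlap. Lrrn3 had 130.1 and 159 CPM in the deletion, against 89.6 and 137 CPM in controls (0.38, SE 0.33), where control library 1 was the low one. Without it the log2 fold change was 0.10, and without control library 2 it was 0.71. In tTA::miR132 Lrrn3 had 106 and 100.2 CPM, against 106 and 155 CPM in controls (-0.39, SE 0.33), a value of -0.046 without control library 2 and -0.65 without control library 1. In tTA::miR212 it had 59.0, 88.7 and 76.9 CPM, against 81.6, 68.5 and 65.1 CPM in controls, a difference within the spread (0.06, SE 0.16). With 1 library left out the log2 fold changes in tTA::miR212 ran from -0.22 to 0.012 for Lrrn1, -0.075 to 0.19 for Lrrn3 and -0.0077 to 0.24 for Lrrtm1, so that the sign of each turned.

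**Figure D3:**
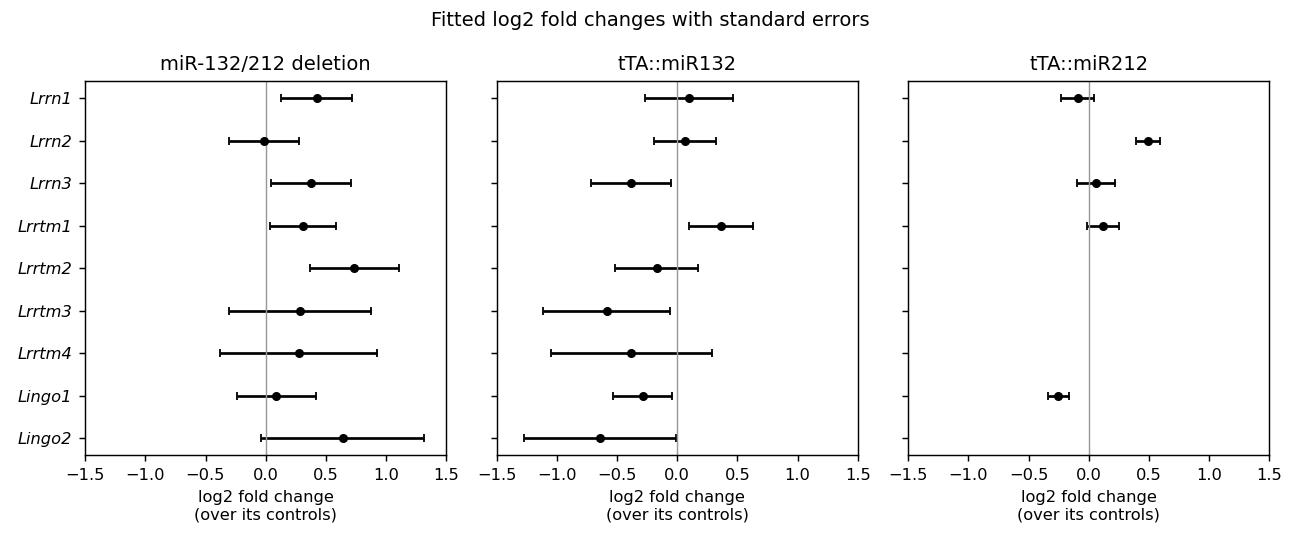
Fitted log2 fold change of each gene over its own controls (x axis) with the standard error as bars, in a panel for each kind of animal; Lrrtm2, Lrrtm3, Lrrtm4 and Lingo2 are drawn in the first panels only. Bars are wide in the deletion and tTA::miR132 and narrow in tTA::miR212, where Lrrn2 stands at 0.49 and Lingo1 at -0.25.

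The 5 genes whose levels followed Lrrn2 most closely over the 6 libraries of the tTA::miR212 table were Slc35f1, Hrk, Slc6a9, Rrp12 and Dpysl5, among 4618 genes with a mean of at least 10 CPM. Likeness is the root mean square difference of log2(CPM + 1) after each gene was centred on its mean, which was 0.049 for Slc35f1 and 0.09 to 0.10 for the others, against a median of 0.299 over all genes. Slc35f1, a solute carrier family gene, had 101.2, 135 and 136 CPM in tTA::miR212 libraries 1, 2 and 3, against 91.9, 91.6 and 83.3 CPM in controls. Like Lrrn2, it was lower in library 1 than in the other tTA::miR212 libraries. Slc6a9, the glycine transporter gene GlyT1, averaged 83.9 CPM in tTA::miR212 and 64.0 CPM in controls, and the cell death gene Hrk 188 and 138 CPM. These 5 genes were picked for their likeness to Lrrn2 over the same 6 libraries. Their differences between tTA::miR212 and controls therefore follow from that choice and are no separate result.

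**Figure D4:**
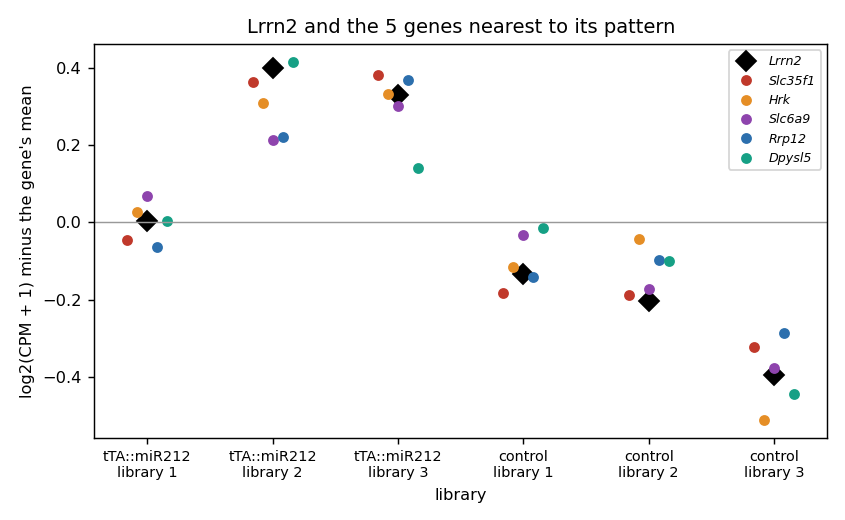
Level of Lrrn2 (black diamonds) and of the 5 genes nearest to its pattern (coloured points) in each tTA::miR212 library and each control, as log2(CPM + 1) minus the mean of each gene over the 6 libraries. In the points of Lrrn2, all 3 tTA::miR212 libraries stand at or above 0 and all 3 controls below it.

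Counted over the family, 8 of 9 log2 fold changes lay above 0 in the deletion, where 47.9% of all genes tested did (9 of 9 with DESeq2's size factors, where Lrrn2 turned). The median was 0.31, and -0.03 over all 10487 genes. In 3 genes (Lrrn1, Lrrtm1 and Lrrtm2) both deletion libraries lay above both controls, which held for 14.3% of all genes, and in 0 genes below, which held for 18%. The summed level of the 9 genes was 1207 and 1228 CPM in deletion libraries 1 and 2, against 843 and 1179 CPM in controls 1 and 2. Control library 1 was the low one, and without it 6 of 9 genes lay above 0 with a median of 0.10. Without deletion library 1 there were 8 of 9 with a median of 0.32, and without deletion library 2 there were 6 of 9. Without control library 2 there were 9 of 9 with a median of 0.56.

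In tTA::miR132, 3 of 9 genes lay above 0 (49.9% of all genes), with a median of -0.29 and 0.00 over all 10734 genes. Lrrtm1 was the 1 gene with both transgenic libraries above both controls (18.8% of all genes), and 0 had both below (14.3%). The sum was 935 and 1061 CPM, against 1108 and 986 CPM in controls, with overlap. The median was -0.011 without tTA::miR132 library 1 and -0.071 without control library 1. In tTA::miR212, 3 of 5 genes lay above 0 (51% of all genes, median 0.06). With 1 library left out this ran from 1 of 5 (median -0.075, without tTA::miR212 library 2) to 4 of 5 (median 0.16, without control library 1). Lrrn2 was the 1 gene with groups apart (6.47% of genes were apart and higher, 4.96% apart and lower). The rule used these values, so nothing is read from that count. The sum of the 5 genes was 1180, 1258 and 1194 CPM, against 1221, 1170 and 1189 CPM in controls.

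**Figure D5:**
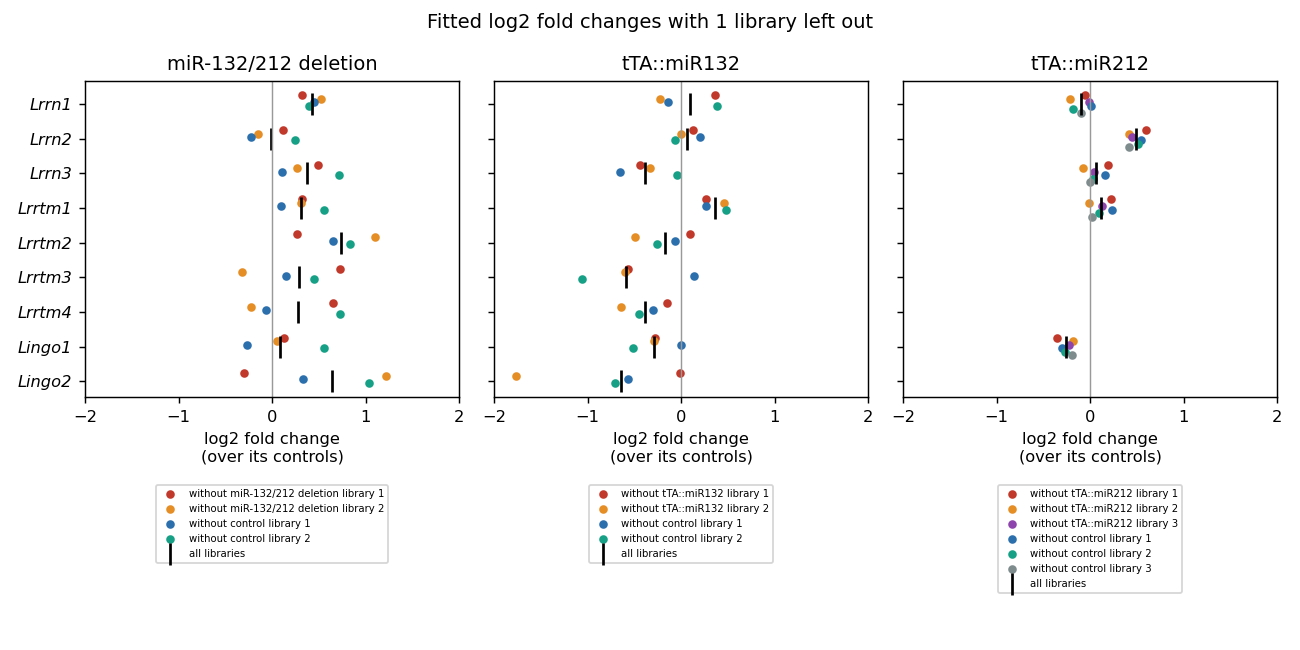
Fitted log2 fold change of each gene over its own controls with all libraries (black bar) and with each library left out in turn (coloured points), in a panel for each kind of animal. The points of Lingo2, Lrrtm3 and Lrrtm4 spread across 0 in the deletion (2 libraries per group). Those of Lrrn2 in tTA::miR212 (3 libraries per group) stay between 0.42 and 0.59, a gene known there when the family was chosen.

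No member passed edgeR's test in the deletion or in tTA::miR132, where 0% of all genes passed (88 of 10487, or 0.839%, and 303 of 10734, or 2.82%, had an unadjusted p under 0.05, among them 0 members). In tTA::miR212 0% of 4618 genes passed as well, with 260, or 5.63%, at an unadjusted p under 0.05. DESeq2 called 5, 39 and 0 genes and limma-voom 0, 2 and 0 in the deletion, tTA::miR132 and tTA::miR212, none of them a member in the deletion or tTA::miR132. The median standard error over all genes was 0.61 in the deletion and 0.56 in tTA::miR132, against 0.12 in tTA::miR212. In the authors' deposited table of the deletion, 4 members (Lrrn1, Lrrtm2, Lrrtm3 and Lingo1) had a q under 0.05, where 54.3% of all genes did. In the authors' deposited table of tTA::miR132 these were 2, Lrrtm1 and Lrrtm3, against 53.1% of all genes. In the authors' deposited table of tTA::miR212, 1 of 5, Lrrn2, was among the 0.0598% of transcripts with a q under 0.05. That value was known when the family was chosen, and nothing is read from it.

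Partners of the LRRTM proteins and other synaptic genes near them in function were read from a list of 17 genes, of which 12 were tested in each table. The log2 fold change of the neurexin gene Nrxn2 was below 0 in tTA::miR132 (-0.42, SE 0.25) and tTA::miR212 (-0.11, SE 0.062) and above it in the deletion (0.24, SE 0.36), and Nrxn3 had -0.14, 0.03 and 0.07 in the deletion, tTA::miR132 and tTA::miR212. Dlg4, the gene of PSD-95, had 279 and 236 CPM in the deletion, against 128 and 186 CPM in controls (0.74, SE 0.30), and -0.09 and -0.03 in tTA::miR132 and tTA::miR212. Other values of small p were 0.86 (SE 0.33) for Nlgn2, a neuroligin gene, in the deletion, -1.19 (SE 0.37) for Dlg1 and 0.83 (SE 0.33) for Dlg2, scaffold genes, in tTA::miR132, and -0.26 (SE 0.11) for Dlg1 in tTA::miR212. Of this list 5 of 12 lay above 0 in the deletion, 5 of 12 in tTA::miR132 and 7 of 12 in tTA::miR212, with medians of -0.13, -0.08 and 0.06.

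Genes of the Nogo receptor complex and its surroundings lay above 0 in 4 of 12 cases in the deletion, 9 of 12 in tTA::miR132 and 7 of 11 in tTA::miR212 (medians -0.11, 0.38 and 0.02). Wnk1, a kinase gene of that list, had 298 and 296 CPM in tTA::miR132, against 217 and 162 CPM in controls (0.61, SE 0.23). Rhoa, the gene of the GTPase on which Nogo signals converge, had 72.5 and 53.5 CPM in the deletion, against 23.4 and 25.03 CPM in controls (1.41, SE 0.53). The other leucine-rich repeat adhesion genes of neurons had medians of -0.22, -0.07 and -0.03, with 9 of 26, 12 of 26 and 9 of 21 above 0 in the deletion, tTA::miR132 and tTA::miR212. Among them Islr2 was higher in the deletion (152 and 79.9 CPM against 31.2 and 55.9 CPM in controls), and Slitrk3 (41.8 and 41.8 CPM against 68.8 and 89.7 CPM in controls) and Slitrk5 (87.3 and 93.1 CPM against 128 and 161 CPM) were lower in tTA::miR132. Ntrk3, the neurotrophin receptor gene TrkC, had -0.66 (SE 0.35) in the deletion, and Lgi2 and Amigo1 had -0.39 (SE 0.12) and -0.17 (SE 0.087) in tTA::miR212. Of these lists no gene passed edgeR's test in any comparison (50, 50 and 44 tested; adjusted p of those named 0.714 to 0.999). Medians over all genes were -0.03, 0.00 and 0.00.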

How the data were processed

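Per the labels' protocols and design text, polyadenylated hippocampal RNA was read on an Illumina Genome Analyzer II and aligned with Bowtie 0.12.7 to mm9. The design text also names Cufflinks 1.2. With which annotation, strand setting and gene filter the reads were counted is not stated. The deposited values are raw read counts per RefSeq gene (deletion, tTA::miR132) or per Ensembl transcript (tTA::miR212), and the authors' q-values are p-values they adjusted, per the file headers. The 14 normalized columns were not used, and 1 repeated header line in the deletion table was skipped. Headers show the group of a library with a number, so libraries were tied to groups only.

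For tTA::miR212 the transcript with the highest mean count stood for each gene. CPM are counts scaled to 1000000 over the rows kept, with no further factor. Each table was fitted alone with edgeR 4.0.16 in R 4.3.3 (TMM, filterByExpr, robust quasi-likelihood test, Benjamini-Hochberg adjustment over all genes tested, threshold 0.05). The steps were tested beforehand on simulated data. For the deletion and tTA::miR132 the simulated spread between libraries was smaller than that of the data. That test therefore does not show what could be called there. Alternatives used limma 3.58.1 and DESeq2 1.42.0. The SE is the log2 fold change over the root of the F statistic. Libraries of a group differed beyond counting error (chi-square per degree of freedom 1.39 to 148). Each was counted as a sample, although that excess cannot show that libraries are independent. The labels do not tie the libraries to separate animals, so p-values measure the spread between libraries, which may be technical. No molecular identifiers are stated.

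Members and lists were chosen with earlier results of these data known. Named genes are the 9 members, host genes, fixed partners (1 is not reported here), the 5 genes of smallest p over the partner and related lists, the 5 nearest to Lrrn2 and the highest markers.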

Additional observations from a re-analysis of the deposited data

How the results depend on the processing

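There were 250 values of single members under other settings over all comparisons, those of tTA::miR212 included. Among the values of the deletion and tTA::miR132, 15 turned in direction. In tTA::miR212, where members have no test, values moved by less than the spread, but Lrrn1 (0.012 without control library 1), Lrrn3 (-0.075 without tTA::miR212 library 2, -0.0037 without control library 3) and Lrrtm1 (-0.0077 without tTA::miR212 library 2) changed sign. Those in the deletion were Lrrn2 (0.0026 with DESeq2's size factors, 0.0029 with DESeq2, 0.013 with limma-voom, 0.12 without deletion library 1, 0.24 without control library 2), Lrrtm3 (-0.32 without deletion library 2), Lrrtm4 (-0.23 without deletion library 2, -0.07 without control library 1), Lingo1 (-0.27 without control library 1) and Lingo2 (-0.31 without deletion library 1). Lrrtm2 (1.10) and Lingo2 (1.21) passed without deletion library 2. In tTA::miR132 they were Lrrn1 (-0.22 without tTA::miR132 library 2, -0.14 without control library 1), Lrrn2 (-0.061 without control library 2), Lrrtm2 (0.095 without tTA::miR132 library 1) and Lrrtm3 (0.13 without control library 1). Over the leave-one-out fits the log2 fold changes in the deletion ran from -0.23 to 0.24 for Lrrn2, -0.32 to 0.72 for Lrrtm3, -0.23 to 0.72 for Lrrtm4, -0.27 to 0.56 for Lingo1 and -0.31 to 1.21 for Lingo2. In tTA::miR132 they ran from -0.22 to 0.39 for Lrrn1, -0.061 to 0.20 for Lrrn2, -0.49 to 0.095 for Lrrtm2 and -1.06 to 0.13 for Lrrtm3. Counts of genes called by edgeR ranged over the leave-one-out fits from 1 to 4527 in the deletion (4527 without deletion library 2, 8 without library 1), 0 to 111 in tTA::miR132 (111 without control library 1, 4 without tTA::miR132 library 2) and 0 to 18 in tTA::miR212 (18 without tTA::miR212 library 1). In the deletion and tTA::miR132 each leave-one-out fit left 1 library alone in its group, so those counts depend on that library. With all libraries DESeq2 called 5 in the deletion and 39 in tTA::miR132, and limma-voom 2 in tTA::miR132. With the library number as a replicate block, edgeR called 0 in the deletion, 1 in tTA::miR132 and 1 in tTA::miR212, none a member in the deletion or tTA::miR132. The numbers gave little sign of pairing. Deviations of same-numbered libraries correlated at 0.02 in the deletion, 0.01 in tTA::miR132 and -0.08, 0.02 and -0.03 in tTA::miR212. In tTA::miR212 no library correlated best with the control of its own number. With 2 libraries per group, pairs of unlike number have the same value with the opposite sign. In the deletion and tTA::miR132 only the small size of the correlation can therefore be read. Counts stayed at 0 in every comparison with other scaling or without the filter, and in tTA::miR212 with all transcript rows or their sums. With 2 libraries per group and zeros in single libraries, the deletion and tTA::miR132 bound the members only loosely. The cause of these changes was not tested.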
